A study of Mus musculus with 2 samples.

Results

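The genes described here encode 8 enzymes that act on fructose, on the polyol route that makes fructose from glucose, and on the first step of hexose use. They are Khk, Tkfc, Aldoc, Akr1b3, Sord, Hk1, Hk2 and Hk3, taken by their symbols from the 32285 genes of the deposited matrices, and all 8 were found. The cells were immune cells from the brains of mice that carried CT-2A tumours, a mouse glioma line implanted in the brain and removed 14 days later. They were selected with beads against CD45, a surface protein of leukocytes, and profiled by droplet single-cell RNA sequencing from the 5′ end of transcripts. There was 1 library of a Glut5 KO mouse group and 1 library of a wildtype mouse group, both with the same tumour line. Glut5 is the fructose transporter encoded by Slc2a5. The record's design text calls these mice knockdown mice; the word KO is used here, after the labels. By its title each library came from a single mouse, while the cells of each were of both sexes. None of the sources at hand gives the strain, age or number of mice otherwise, the deleted exons or the cells in which the gene was deleted.

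Fructose is phosphorylated by ketohexokinase (Khk) to fructose 1-phosphate, which an aldolase splits, and triokinase (Tkfc) phosphorylates the glyceraldehyde that results. In the polyol route, aldose reductase (Akr1b3) reduces glucose to sorbitol and sorbitol dehydrogenase (Sord) oxidises sorbitol to fructose, so that a cell can make fructose without a transporter. Hexokinases (Hk1, Hk2 and Hk3) phosphorylate glucose and, with lower affinity, fructose, and their products enter glycolysis directly.

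In the Glut5 KO library 96851696 UMIs (tags that mark single transcript molecules) came from 12165 barcodes, and in the wildtype library 116105873 UMIs came from 11495 barcodes. After filters on genes and mitochondrial share, 12112 Glut5 KO and 11473 wildtype barcodes were kept, with medians of 6523.5 UMIs in the Glut5 KO and 8682 UMIs in the wildtype library. Marker genes assigned 6176 Glut5 KO barcodes (51.0%) and 5579 wildtype barcodes (48.6%) to 12 cell classes, and the rest were left ungated. The libraries shared 188 cell barcodes, which is 1.55% of the Glut5 KO and 1.64% of the wildtype barcodes. Y-linked UMIs without Xist were seen in 2646 Glut5 KO and 3620 wildtype cells, and Xist without Y-linked UMIs in 3473 Glut5 KO and 2891 wildtype cells, so each library held cells of both sexes. Each genotype has 1 library, so no test was run, and genotype and library batch cannot be told apart. Levels are UMIs of a gene per 1000000 UMIs of its class (CPM), with no scaling for gene length, so the level of a gene is compared with its own in other classes and libraries. Where hexokinases are set beside each other within a class, the shares are of UMIs and do not allow for differences in capture between genes. Values in brackets are exact 95% intervals for the counting error and for nothing else.

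Classes are called gated because they rest on transcripts alone. Each library had at least 200 cells in 6 classes: microglia (1024 Glut5 KO and 1312 wildtype cells), monocyte/macrophage (2899 Glut5 KO and 2748 wildtype), cDC2, a dendritic cell type (448 Glut5 KO and 386 wildtype), migratory dendritic cells (326 Glut5 KO and 399 wildtype), T cells (551 Glut5 KO and 278 wildtype) and NK cells (315 Glut5 KO and 271 wildtype). Levels are also given for plasmacytoid dendritic cells (pDC; 146 Glut5 KO and 64 wildtype cells). Markers kept out of the gate were highest in their own class for 4 of 5 in microglia-gated cells and 4 of 4 in migratory dendritic, pDC and NK cell-gated cells of both libraries. The count was 4 of 4 in Glut5 KO and 3 of 4 in wildtype T cell-gated cells, and 2 of 4 in cDC2-gated cells of each library. It was 2 of 5 in monocyte/macrophage-gated cells of each library, where Ly6c2 and Plac8 were higher in pDC-gated cells and Ccr2 in NK cell-gated cells. Slc2a5 had 0 UMIs in 1024 Glut5 KO microglia-gated cells, where 3 counts would be 0.336 CPM, against 327 UMIs (26.3 CPM [23.5 to 29.3]) in wildtype microglia-gated cells. Over all kept barcodes Slc2a5 had 1 UMI in the Glut5 KO library and 384 in the wildtype library.

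The upstream sequences of 3 of the genes are shown because each stands for a pattern described below: Khk for its high level in pDC-gated cells, Hk3 for its high level in few classes, and Hk2 for its higher level in cells that express hypoxia genes. They come from RefSeq promoter windows of 250 bases before and 50 bases after a gene's start (build GRCm38.p6), which 7 of the 8 genes have. Shown 5′ to 3′ are the bases before the start that lie outside annotated exons of the gene. Capitals mark matches on either strand to the hypoxia response core (ACGTG or GCGTG, found in 43.8% of all 32851 windows) and to the E-box CAGGTG, which the pDC regulator Tcf4 can bind (20.2% of windows). The PU.1 motif GAGGAAGT, bound by a regulator of myeloid genes, was in 3.20% of windows and in no window of these genes.
Khk, chr5:30921309-30921430, plus strand: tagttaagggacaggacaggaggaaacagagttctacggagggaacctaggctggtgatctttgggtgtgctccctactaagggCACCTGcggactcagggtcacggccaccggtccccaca
Hk2, chr6:82774455-82774704, minus strand: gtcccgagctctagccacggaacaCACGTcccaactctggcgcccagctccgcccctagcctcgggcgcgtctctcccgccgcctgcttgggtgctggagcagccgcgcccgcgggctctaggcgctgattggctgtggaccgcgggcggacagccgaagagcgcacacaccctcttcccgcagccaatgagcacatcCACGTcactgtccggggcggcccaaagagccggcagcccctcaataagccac
Hk3, chr13:55021386-55021635, minus strand: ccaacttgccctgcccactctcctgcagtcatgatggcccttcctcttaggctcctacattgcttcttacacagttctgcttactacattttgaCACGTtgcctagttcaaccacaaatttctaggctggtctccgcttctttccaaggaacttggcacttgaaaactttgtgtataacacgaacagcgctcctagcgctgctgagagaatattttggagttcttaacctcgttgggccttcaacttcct
The printed part of Khk holds 1 E-box match, that of Hk2 holds 2 hypoxia core matches and that of Hk3 holds 1. A match describes the letters only.

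Khk (ENSMUSG00000029162, chr5:30921431-30931248, plus strand), the enzyme that commits fructose to its own route, was by far highest in pDC-gated cells. Its level there was 227 CPM [198 to 258] in the Glut5 KO library and 163 CPM [129 to 203] in the wildtype library. This was 10.9-fold [9.29 to 12.8] the level of monocyte/macrophage-gated cells in the Glut5 KO library and 6.49-fold [5.07 to 8.22] in the wildtype library. Against microglia-gated cells, the class with most of the Slc2a5 UMIs, the fold was 5.04 [4.26 to 5.95] in the Glut5 KO library and 3.97 [3.09 to 5.03] in the wildtype library. Both pDC intervals lay above those of the other 6 classes described.

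Among the remaining larger classes, Khk was next highest in microglia-gated and cDC2-gated cells. It had 42.2 CPM in Glut5 KO and 54.0 CPM in wildtype cDC2-gated cells, and 45.0 CPM [40.7 to 49.6] in Glut5 KO and 41.1 CPM [37.6 to 44.8] in wildtype microglia-gated cells. Monocyte/macrophage-gated cells had less, 20.8 CPM in the Glut5 KO and 25.1 CPM in the wildtype library, so that microglia-gated cells were 2.16-fold [1.90 to 2.47] above them in the Glut5 KO and 1.64-fold [1.45 to 1.84] in the wildtype library. Levels were low in T cell-gated cells (7.58 CPM in Glut5 KO and 14.1 CPM in wildtype) and NK cell-gated cells (7.66 CPM in Glut5 KO and 8.67 CPM in wildtype). Migratory dendritic cells, a mature form, had 14.3 CPM in the Glut5 KO and 10.0 CPM in the wildtype library, and cDC2-gated cells stood 2.95-fold [2.04 to 4.39] above them in the Glut5 KO and 5.39-fold [3.71 to 8.05] in the wildtype library. The small cDC1-gated class, a cross-presenting dendritic type with 48 Glut5 KO and 74 wildtype cells, stood above microglia-gated and cDC2-gated cells. It had 85.3 CPM [64.1 to 111] in the Glut5 KO and 70.5 CPM [55.2 to 88.8] in the wildtype library. The wildtype interval overlapped that of wildtype cDC2-gated cells [46.6 to 62.2].

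The share of cells with a Khk UMI was also highest in pDC-gated cells among the larger classes. With each cell thinned to 1000 UMIs, it was 18.6% [12.5 to 26.0] of Glut5 KO pDC-gated cells (26 of 140, with 6 shallower cells left out) and 11.1% [4.59 to 21.6] of wildtype ones (7 of 63, with 1 left out). The wildtype interval overlapped those of wildtype microglia-gated cells (4.89% [3.78 to 6.21]) and cDC2-gated cells (4.40% [2.59 to 6.96]). In T cell-gated cells, which should hold little of it, the thinned share was 0.189% in the Glut5 KO and 1.09% in the wildtype library. Without thinning, Khk was seen in 65.1% of Glut5 KO and 65.6% of wildtype pDC-gated cells, whose median depths were 6597.5 UMIs in Glut5 KO and 6562 UMIs in wildtype cells. In T cell-gated cells the unthinned share was 4.90% in the Glut5 KO library at a median depth of 5483 UMIs, and 8.63% in the wildtype library at 5724 UMIs. In the gated Glut5 KO cells, pDC-gated cells gave 14.8% of all Khk UMIs and microglia-gated cells 26.3%, against 5.11% and 33.0% in the gated wildtype cells.

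**Figure D1:**
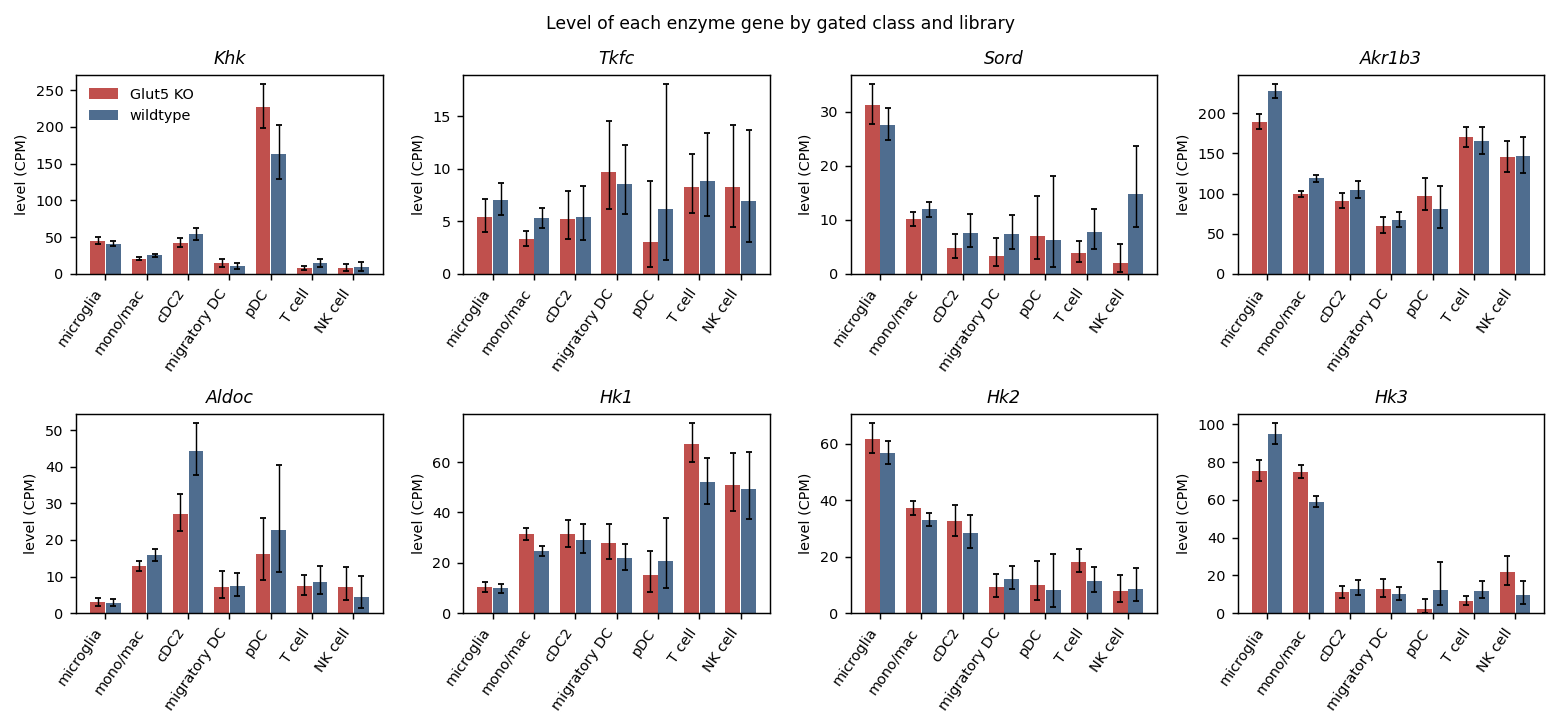
Level of each gene in CPM (y axis, a scale of its own per gene) in 7 gated classes (x axis), Glut5 KO in red and wildtype in blue; bars are the level of 1 library each and error bars its exact 95% counting interval. Khk peaks in pDC-gated cells (227 CPM in Glut5 KO and 163 CPM in wildtype), Sord in microglia-gated cells, Aldoc in cDC2-gated cells and Hk1 in T cell-gated cells.

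Tkfc (ENSMUSG00000034371, chr19:10587791-10605654, minus strand), which phosphorylates the glyceraldehyde, showed no comparable peak. Its level lay between 3.01 and 9.69 CPM in the Glut5 KO and between 5.28 and 8.85 CPM in the wildtype library over the 7 classes. Each class's interval overlapped that of its neighbour in the order of levels in both libraries, but classes further apart could differ. T cell-gated cells had 2.49-fold [1.65 to 3.71] the monocyte/macrophage level in the Glut5 KO and 1.68-fold [1.02 to 2.65] in the wildtype library. In pDC-gated cells, where Khk was highest, Tkfc had 3 UMIs in the Glut5 KO and 3 in the wildtype library, and its level over monocyte/macrophage-gated cells was 0.91-fold [0.18 to 2.75] in the Glut5 KO and 1.17-fold [0.24 to 3.50] in the wildtype library. Tkfc overlaps Cyb561a3 and Ddb1 on the opposite strand, and its counts are uncertain where reads could be split between them.

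Aldoc (ENSMUSG00000017390, chr11:78322968-78327781, plus strand) encodes aldolase C, one of the aldolases that can split fructose 1-phosphate. Its level was highest in cDC2-gated cells, with 27.2 CPM [22.5 to 32.5] in the Glut5 KO and 44.4 CPM [37.7 to 51.9] in the wildtype library, although these intervals overlapped those of pDC-gated cells. Its lowest level was in microglia-gated cells, with 2.91 CPM [1.90 to 4.26] in the Glut5 KO and 2.82 CPM [1.96 to 3.92] in the wildtype library. Microglia-gated cells therefore had 0.23-fold [0.15 to 0.34] the monocyte/macrophage level in the Glut5 KO and 0.18-fold [0.12 to 0.25] in the wildtype library.

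In the polyol route, both enzymes were highest in microglia-gated cells. Akr1b3 (ENSMUSG00000001642, chr6:34302434-34317478, minus strand) had 189 CPM [181 to 199] in Glut5 KO and 228 CPM [219 to 236] in wildtype microglia-gated cells, 1.91-fold the monocyte/macrophage level in each library. T cell-gated cells followed with 170 CPM in the Glut5 KO and 165 CPM in the wildtype library, and NK cell-gated cells with 146 CPM in the Glut5 KO and 147 CPM in the wildtype library. In the Glut5 KO library the intervals of microglia-gated and T cell-gated cells overlapped, while in the wildtype library they did not. Migratory dendritic cells had the lowest level in both libraries, 59.8 CPM in the Glut5 KO and 67.4 CPM in the wildtype library. The gene lies across Gm14546 on the opposite strand.

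Sord (ENSMUSG00000027227, chr2:122234749-122265340, plus strand), whose product is fructose itself, was concentrated more sharply. Microglia-gated cells had 31.2 CPM [27.7 to 35.1] in the Glut5 KO and 27.5 CPM [24.7 to 30.6] in the wildtype library, and monocyte/macrophage-gated cells 10.1 CPM in the Glut5 KO and 11.9 CPM in the wildtype library. The fold between them was 3.1 [2.60 to 3.68] in the Glut5 KO and 2.31 [1.97 to 2.71] in the wildtype library. Of the other 6 classes described, none had an interval that reached the microglial one in the same library. Its upstream window held none of the 3 motifs searched.

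The hexokinases divided the classes by gene. Hk1 (ENSMUSG00000037012, chr10:62268855-62379908, minus strand), the isoform most cells use for basal glycolysis, was highest in T cell-gated and NK cell-gated cells among the larger classes. T cell-gated cells had 67.4 CPM [60 to 75.4] in the Glut5 KO and 51.9 CPM [43.3 to 61.7] in the wildtype library. NK cell-gated cells had 51.1 CPM in the Glut5 KO and 49.4 CPM in the wildtype library, and their intervals overlapped those of T cell-gated cells. Microglia-gated cells had the least, 10.2 CPM [8.20 to 12.5] in the Glut5 KO and 9.82 CPM [8.16 to 11.7] in the wildtype library. These intervals overlapped those of pDC-gated cells, [8.43 to 24.8] in the Glut5 KO and [9.88 to 37.9] in the wildtype library. T cell-gated cells were 6.61-fold [5.21 to 8.45] above microglia-gated cells in the Glut5 KO and 5.29-fold [4.10 to 6.83] in the wildtype library. Among the small classes, the 138 Glut5 KO B cell-gated cells had 26.1 CPM [15.5 to 41.3]. The mast cell/basophil-gated class had 37 Glut5 KO and 14 wildtype cells. Its level was 83.9 CPM [43.4 to 147] in the Glut5 KO and 56.4 CPM [20.7 to 123] in the wildtype library. Hk1 overlaps the antisense gene Hk1os, and reads of such a pair cannot be told apart where strand is not used in counting.

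Hk2 (ENSMUSG00000000628, chr6:82725025-82774454, minus strand), the inducible isoform, was highest in microglia-gated cells. It had 61.9 CPM [56.9 to 67.3] in the Glut5 KO and 56.8 CPM [52.7 to 61.2] in the wildtype library. This was 1.67-fold [1.5 to 1.85] the monocyte/macrophage level in the Glut5 KO and 1.72-fold [1.55 to 1.90] in the wildtype library. Under other processing the log2 ratio was as low as 0.30 in the Glut5 KO and 0.25 in the wildtype library. Monocyte/macrophage-gated cells (37.2 CPM in Glut5 KO and 33.1 CPM in wildtype) and cDC2-gated cells (32.6 CPM in Glut5 KO and 28.6 CPM in wildtype) overlapped in their intervals. The levels of NK cell-gated, pDC-gated and migratory dendritic cells were between 7.66 and 10.0 CPM in the Glut5 KO and between 8.24 and 12.1 CPM in the wildtype library. Gm17034 overlaps Hk2 on the opposite strand.

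Hk3 (ENSMUSG00000025877, chr13:55005985-55021385, minus strand), an isoform known from myeloid cells, was high in both macrophage-type classes and low in the rest. Microglia-gated cells had 75.3 CPM [69.8 to 81.3] in the Glut5 KO and 95 CPM [89.6 to 101] in the wildtype library, and monocyte/macrophage-gated cells 75.0 CPM [71.7 to 78.4] in the Glut5 KO and 59.1 CPM [56.1 to 62.3] in the wildtype library. The classes were thus level in the Glut5 KO library, at 1.0-fold [0.92 to 1.10], and 1.61-fold apart [1.49 to 1.74] in the wildtype library. The small neutrophil-gated class (99 Glut5 KO and 13 wildtype cells) had 110 CPM [74.9 to 156] in the Glut5 KO and 129 CPM [59.0 to 245] in the wildtype library. Among the larger classes the next had 21.7 CPM in the Glut5 KO library (NK cell-gated) and 13 CPM in the wildtype library (cDC2-gated). Unc5a overlaps Hk3 on the opposite strand.

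Macrophage genes are given beside Hk3 as signs of free RNA in T cell-gated, pDC-gated and NK cell-gated cells. Lyz2, Apoe, C1qa, C1qb and C1qc, which T and NK cells should lack, were in T cell-gated cells at a median of 8.86% (6.14 to 9.97%) of their monocyte/macrophage level in the Glut5 KO and 12.8% (7.24 to 15.0%) in the wildtype library. Hk3 in T cell-gated cells was at 8.62% in the Glut5 KO library, inside the range of those genes, and at 19.7% in the wildtype library, above it. In pDC-gated cells the 5 genes were at medians of 7.68% in the Glut5 KO and 18.5% in the wildtype library, and Hk3 at 2.68% in the Glut5 KO and 20.9% in the wildtype library. In NK cell-gated cells Hk3 stood at 29.0% in the Glut5 KO and 16.1% in the wildtype library, while the 5 genes did not pass 2.84% in the Glut5 KO and 3.77% in the wildtype library. In microglia-gated cells the 5 genes ran from 19.7 to 250% of their monocyte/macrophage level in the Glut5 KO library, with Hk3 at 100%. In the wildtype library they ran from 13.3 to 223%, with Hk3 at 161%. A share of the monocyte/macrophage level is thus not the same measure of free RNA for each gene. The part of free RNA in these levels was not tested.

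The share of each gene in the summed hexokinase UMIs differed widely between classes. Hk1 made up 6.91% [5.6 to 8.42] of hexokinase UMIs in Glut5 KO and 6.08% [5.07 to 7.21] in wildtype microglia-gated cells. It made up 21.9% [20.5 to 23.2] in Glut5 KO and 21.1% [19.6 to 22.7] in wildtype monocyte/macrophage-gated cells, and 73.1% [68.6 to 77.3] in Glut5 KO and 69.4% [62.2 to 75.9] in wildtype T cell-gated cells. The Hk2 share was 42.0% [39.3 to 44.7] in Glut5 KO and 35.2% [33.1 to 37.3] in wildtype microglia-gated cells, and the Hk3 share 51.1% [48.4 to 53.8] in Glut5 KO and 58.8% [56.6 to 60.9] in wildtype ones. These microglial shares of Hk2 and Hk3 differed between the libraries by more than counting error, while the Hk1 share did not. In cDC2-gated cells Hk1 and Hk2 held similar shares, 41.8% and 43.6% in the Glut5 KO library, against 41.2% and 40.4% in the wildtype library.

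**Figure D2:**
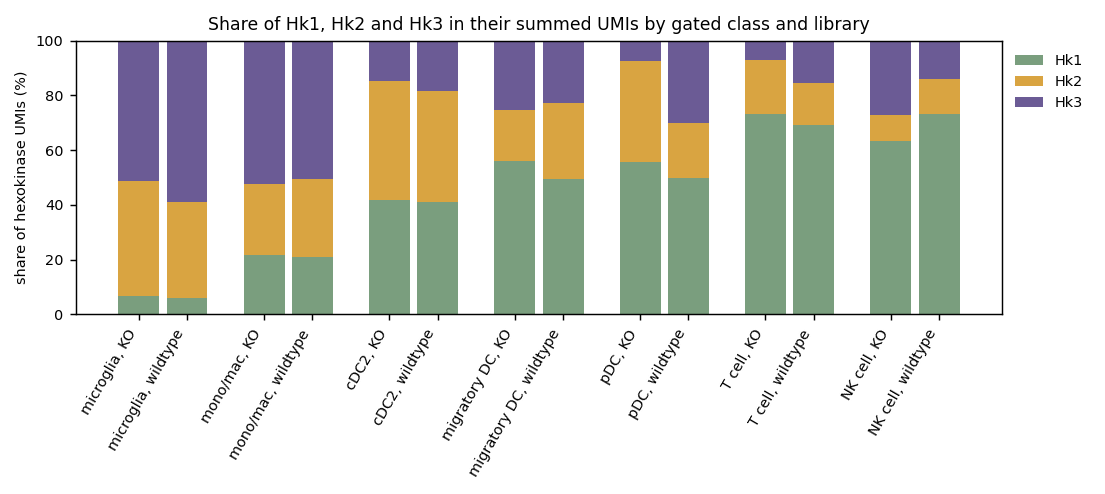
Share of Hk1, Hk2 and Hk3 in the summed UMIs of the 3 genes (y axis, percent) by gated class, the Glut5 KO bar left of the wildtype bar. Microglia-gated and monocyte/macrophage-gated cells are mostly Hk3 and Hk2, and T cell-gated cells are 73.1% Hk1 in the Glut5 KO and 69.4% in the wildtype library.

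Beside the loss of Slc2a5, each of the 8 enzyme genes differed by less than 1.5-fold between the libraries in microglia-gated cells. Khk had 402 UMIs (45.0 CPM) in the Glut5 KO and 510 UMIs (41.1 CPM) in the wildtype library, a log2 ratio of 0.13 [-0.06 to 0.32]. Sord differed by 0.18 [-0.05 to 0.41], Tkfc by -0.38 [-0.92 to 0.14], Aldoc by 0.05 [-0.74 to 0.82], Hk1 by 0.05 [-0.35 to 0.46] and Hk2 by 0.12 [-0.04 to 0.29]. These 6 intervals included 0. Akr1b3 was lower in the Glut5 KO library, with a log2 ratio of -0.27 [-0.35 to -0.18], and so was Hk3, with -0.33 [-0.47 to -0.20]. Several of these results depended on the gate. With assignment by most marker UMIs, Aldoc had a log2 ratio of 1.04 on 161 UMIs, which is past 1.5-fold. Khk then had 0.34, Hk2 0.31 and Tkfc -0.52, and the intervals of Aldoc, Khk, Hk2 and Tkfc excluded 0. Those of Sord (0.13) and Hk1 (0.11) still included 0.

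None of the 8 genes, all with at least 50 UMIs over both libraries, was 1.5-fold higher or lower in Glut5 KO than in wildtype microglia-gated cells, where 2% of 10453 genes were higher and 5.68% lower by that much. Their median log2 ratio was 0.05, beside -0.05 over all these genes. For Khk, Sord, Hk1 and Hk2 the intervals end below a 1.5-fold difference in either direction, and for Tkfc and Aldoc they do not.

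In monocyte/macrophage-gated cells the 3 hexokinases were higher in the Glut5 KO library, and Khk, Tkfc, Aldoc and Akr1b3 were lower. Hk1 had 31.4 CPM in the Glut5 KO and 24.7 CPM in the wildtype library, a log2 ratio of 0.35 [0.19 to 0.50]. Hk3 had a ratio of 0.34 [0.24 to 0.44] and Hk2 of 0.17 [0.03 to 0.31]. All 3 intervals lay above 0, and all 3 differences were under 1.5-fold. The Hk2 ratio was -0.09 in cells thinned to 1000 UMIs and -0.06 in cells with Xist UMIs alone.

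Of the other 5 genes, Khk had a log2 ratio of -0.27 [-0.44 to -0.10], Akr1b3 of -0.27 [-0.34 to -0.19], Aldoc of -0.29 [-0.51 to -0.08] and Sord of -0.24 [-0.49 to 0.01]. The Aldoc ratio was 0.02 when cells were assigned to the class with the most marker UMIs. Tkfc had 84 UMIs (3.31 CPM) in the Glut5 KO and 129 UMIs (5.28 CPM) in the wildtype library, a ratio of -0.67 [-1.09 to -0.27], and was the only one past 1.5-fold. The count was thus 0 of 8 higher and 1 of 8 lower, where 3.72% of 11626 genes were higher and 3.54% lower. The median log2 ratio of the 8 genes was -0.25, beside -0.03 over all genes.

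The Hk3 ratio therefore had opposite signs in the 2 macrophage-type classes, and neither interval reached 0. In cells thinned to 1000 UMIs the ratio was -0.20 [-0.64 to 0.23] in microglia-gated and 0.008 [-0.29 to 0.31] in monocyte/macrophage-gated cells, and with assignment by most marker UMIs the microglial ratio was -0.10 [-0.21 to 0.007]. The genes used as signs of free RNA moved too: Apoe had a log2 ratio of 0.50 in microglia-gated cells and Lyz2 of -0.42 in monocyte/macrophage-gated cells. Their part in the Hk3 ratios was not tested.

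**Figure D3:**
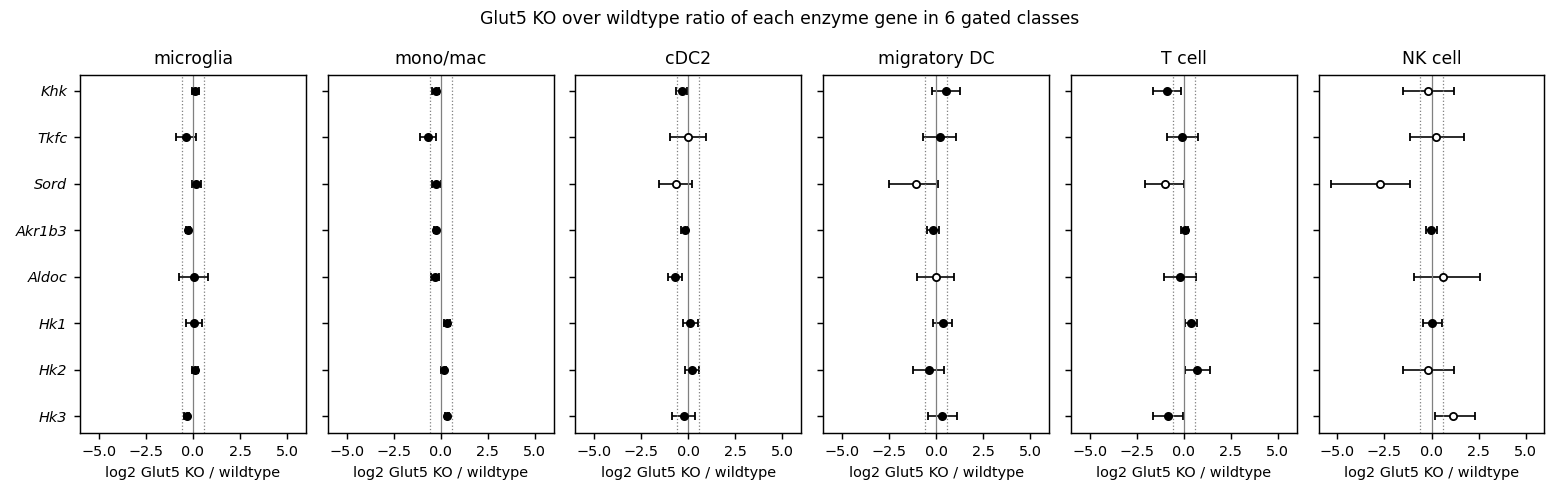
Log2 ratio of Glut5 KO over wildtype (x axis) for each gene (y axis) in 6 gated classes, with exact 95% counting intervals; open circles mark genes with under 50 UMIs over both libraries, and dotted lines mark 1.5-fold. Most points sit between the dotted lines; Tkfc in monocyte/macrophage-gated, Aldoc in cDC2-gated and Khk, Hk2 and Hk3 in T cell-gated cells lie outside with at least 50 UMIs.

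In cDC2-gated cells Aldoc, which was highest in this class, had 119 UMIs (27.2 CPM) in the Glut5 KO and 157 UMIs (44.4 CPM) in the wildtype library, a log2 ratio of -0.71 [-1.06 to -0.36]. Khk was also lower, by -0.35 [-0.65 to -0.06], and the intervals of Akr1b3, Hk1, Hk2 and Hk3 included 0. Of the 6 genes with enough UMIs, 0 were 1.5-fold higher and 1 was lower, where 4.76% of 8170 genes were higher and 2.63% lower. UMIs of a Y-linked gene were in 24.8% of Glut5 KO and 44.3% of wildtype cDC2-gated cells, and in the cells with such UMIs alone the Aldoc ratio was -0.55. The macrophage genes were lower in the same cells, with log2 ratios of -1.11 for Apoe, -0.70 for C1qa, -0.76 for C1qb, -0.82 for C1qc and -0.35 for Lyz2, and their part in the Aldoc ratio was not tested. The Khk ratio was 0.01 in cells thinned to 1000 UMIs.

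T cell-gated cells had more Hk2 in the Glut5 KO library, 82 UMIs (18.3 CPM) against 28 UMIs (11.3 CPM) in the wildtype library, a log2 ratio of 0.68 [0.06 to 1.37]. Hk1, the main hexokinase of this class by UMIs, had a ratio of 0.37 [0.07 to 0.68]. Khk (34 Glut5 KO and 35 wildtype UMIs) had a ratio of -0.89 [-1.62 to -0.17] and Hk3 (29 Glut5 KO and 29 wildtype UMIs) of -0.85 [-1.65 to -0.06]. Both are low in T cells, and the macrophage genes were also at a lower share of their monocyte/macrophage level in the Glut5 KO library. Khk in T cell-gated cells was 0.36-fold [0.25 to 0.52] its monocyte/macrophage level in the Glut5 KO and 0.56-fold [0.39 to 0.79] in the wildtype library. The part of free RNA in the Khk and Hk3 ratios was not tested. Of 7 genes with enough UMIs, 1 was higher and 2 were lower by 1.5-fold, where 6.09% of 8942 genes were higher and 3.82% lower. The Khk ratio was -0.11 with a gate that excluded cells of any other gate, the Hk3 ratio -0.32 with assignment by most marker UMIs, and the Hk2 ratio 0.22 in cells with Xist UMIs alone. As a mean of CPM per cell the Hk2 ratio was 1.64. After thinning, Hk2 was seen in 6 of 530 Glut5 KO and 0 of 274 wildtype T cell-gated cells, too few for a ratio, and the Hk1 ratio was 0.03.

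In migratory dendritic cells 0 of the 6 genes with enough UMIs passed 1.5-fold in either direction, where 3.43% of 8048 genes were higher and 5.16% lower. All 6 intervals included 0. In NK cell-gated cells only Akr1b3 and Hk1 had 50 UMIs, with log2 ratios of -0.01 [-0.30 to 0.29] and 0.04 [-0.46 to 0.56], and 0 of 2 passed, where 5.29% of 6108 genes were higher and 3.14% lower. Below that minimum, NK cell-gated cells had 34 Hk3 UMIs in the Glut5 KO and 11 in the wildtype library, and 3 Sord UMIs in the Glut5 KO against 17 in the wildtype library.

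The other genes of the pathways were given by 3 lists. Of 10 genes for fructose entry and use, 5 had enough UMIs in microglia-gated cells, and Slc2a5 was the only one past 1.5-fold; the highest of the rest were Slc2a9, a urate and hexose transporter, at a log2 ratio of 0.30 and Slc2a8, an intracellular hexose transporter, at 0.29, and the lowest was Aldoa, a glycolytic aldolase, at -0.001. Mlxipl, a sugar-responsive transcription factor named after its values were seen, had 41.6 CPM in Glut5 KO and 34.7 CPM in wildtype microglia-gated cells, against 0.473 CPM in Glut5 KO and 0.982 CPM in wildtype monocyte/macrophage-gated cells. Of 12 genes for hexose phosphorylation and the next steps, 9 had enough UMIs in each of these classes. Pfkm, a phosphofructokinase, was the only one past 1.5-fold in microglia-gated cells (17 Glut5 KO and 39 wildtype UMIs, -0.70 [-1.64 to 0.13]), and Pfkp had -0.57 [-0.97 to -0.19].

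In monocyte/macrophage-gated cells 0 of these 9 genes passed 1.5-fold, and Tpi1, a glycolytic isomerase, was the highest with 0.41 [0.38 to 0.45], followed by H6pd with 0.28 [0.02 to 0.53]. The other polyol-side genes also stayed under 1.5-fold, 0 of 3 in microglia-gated and 0 of 4 in monocyte/macrophage-gated cells. In monocyte/macrophage-gated cells Dcxr, a xylulose reductase, had -0.39 [-0.54 to -0.24] and Akr1b10 had 0.23 [0.07 to 0.40]. In the other 4 classes 0 genes of the fructose and polyol lists passed 1.5-fold. Of the hexose list 1 gene was higher in each of 3 classes: Adpgk, an ADP-dependent glucokinase, in migratory dendritic cells, with 0.73 [-0.005 to 1.48], and H6pd, a dehydrogenase of hexose 6-phosphate, in T cell-gated cells, with 0.73 [-0.08 to 1.68], and in NK cell-gated cells, with 26.8 CPM in Glut5 KO and 7.81 CPM in wildtype cells, a ratio of 1.72 [0.72 to 3].

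Within monocyte/macrophage-gated cells, the enzyme genes differed by cell state, and in cells with hypoxia genes Aldoc, Hk1, Hk2 and Akr1b3 each differed in the same direction in both libraries. Cells with at least 3 UMIs, from at least 2 genes, of Vegfa, Adm, Egln3, Ndrg1 and Ankrd37, which are genes induced by low oxygen, numbered 455 in the Glut5 KO and 317 in the wildtype library. In these cells over the remaining ones, Aldoc had a log2 ratio of 1.04 [0.68 to 1.38] in the Glut5 KO and 0.86 [0.49 to 1.21] in the wildtype library. Hk2 had 0.70 [0.49 to 0.91] in the Glut5 KO and 0.40 [0.12 to 0.67] in the wildtype library, and Hk1 had 0.45 [0.20 to 0.68] in the Glut5 KO and 0.48 [0.16 to 0.79] in the wildtype library. Aldose reductase went the other way, with -0.52 [-0.70 to -0.36] in the Glut5 KO and -0.38 [-0.56 to -0.21] in the wildtype library. Khk, Tkfc and Sord intervals included 0 in both libraries. Hypoxia cores are in at least 1 whole window each of Aldoc, Hk1 and Hk2, but also in those of Khk (2 cores), Tkfc (1) and Hk3 (1). Hk3 had 0.29 [0.13 to 0.45] in the Glut5 KO and -0.16 [-0.40 to 0.07] in the wildtype library.

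Cells with the monocyte list (Ly6c2, Chil3, Plac8 and Hp; 1844 Glut5 KO and 1732 wildtype) had more Hk2, with 0.63 [0.43 to 0.83] in the Glut5 KO and 0.70 [0.49 to 0.91] in the wildtype library over the other cells of the class. Akr1b3 was lower in them, with -0.97 [-1.08 to -0.85] in the Glut5 KO and -0.90 [-1.01 to -0.80] in the wildtype library. For 3 genes the intervals of the libraries did not overlap. The same count over all genes was not made, so nothing particular to these genes is drawn from it. Aldoc had 1.09 [0.73 to 1.47] in the Glut5 KO and 0.18 [-0.12 to 0.48] in the wildtype library, Hk3 had 0.49 [0.35 to 0.63] in the Glut5 KO and 0.09 [-0.06 to 0.24] in the wildtype library, and Sord had -0.66 [-1.03 to -0.30] in the Glut5 KO and 0.09 [-0.26 to 0.43] in the wildtype library. Chil3 is also a marker of the gate. The monocyte-list cells were shallower, with medians of 7209.5 against 10067 UMIs in the Glut5 KO and 6363.5 against 10845 UMIs in the wildtype library. The part of depth was not tested.

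Dividing monocyte/macrophage-gated cells (by Mki67, Top2a, Birc5, Cdk1, Ube2c and Cenpf) had more Akr1b3 and less Hk2. Over non-dividing monocyte/macrophage-gated cells, Akr1b3 had 0.80 [0.65 to 0.95] in the 189 Glut5 KO and 0.66 [0.52 to 0.79] in the 195 wildtype dividing cells, and Hk2 had -0.92 [-1.33 to -0.56] in the Glut5 KO and -0.60 [-0.97 to -0.26] in the wildtype library. Sord was also higher in dividing cells, with 0.58 [0.06 to 1.05] in the Glut5 KO and 0.58 [0.12 to 1.0] in the wildtype library. The dividing cells were deeper, with medians of 16056 Glut5 KO and 16147 wildtype UMIs against 7635 in the other Glut5 KO and 7238 in the other wildtype cells. Akr1b3 was higher in dividing microglia-gated cells as well, by 0.64 [0.46 to 0.81] in the Glut5 KO and 0.27 [0.16 to 0.39] in the wildtype library, where they numbered 92 in Glut5 KO and 260 in wildtype. Hk2 in these had -0.05 [-0.44 to 0.30] in the Glut5 KO and -0.17 [-0.42 to 0.08] in the wildtype library, and in dividing T cell-gated cells 0.43 [-0.23 to 1.10] in the Glut5 KO and 1.04 [-0.14 to 2.41] in the wildtype library.

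**Figure D4:**
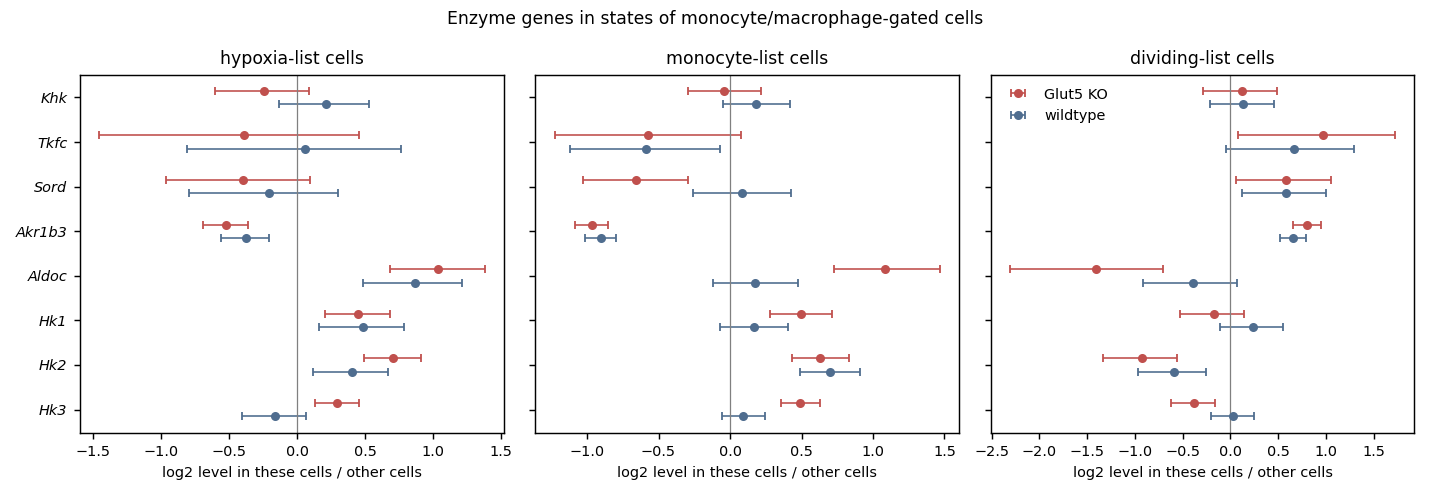
Log2 ratio of the level in monocyte/macrophage-gated cells with a state list over the other cells of the class (x axis) for each gene (y axis), Glut5 KO in red above wildtype in blue, with exact 95% counting intervals; each panel has its own x range. Aldoc, Hk1 and Hk2 lie right of 0 in hypoxia-list cells and Akr1b3 lies left, while in dividing-list cells Akr1b3 lies right and Hk2 left, in both libraries.

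In microglia-gated cells with a lipid-handling list (Gpnmb, Spp1, Fabp4, Fabp5 and Mmp12; 147 Glut5 KO and 230 wildtype cells), Khk was lower than in the other microglia-gated cells. It had 31.9 CPM against 48.9 CPM in the Glut5 KO library, a log2 ratio of -0.61 [-1.02 to -0.23], and 26.1 CPM against 46.0 CPM in the wildtype library, a ratio of -0.81 [-1.18 to -0.47]. The lipid-list cells were deeper in both libraries, with medians of 13616 against 6793 UMIs in the Glut5 KO and 13223 against 7461.5 UMIs in the wildtype library.

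The 243 wildtype microglia-gated cells with an Slc2a5 UMI were compared with the 1069 without one. Khk had 49.0 CPM in the cells with Slc2a5 and 38.7 CPM in those without, a log2 ratio of 0.34 [0.05 to 0.63]. Hk2 had a ratio of 0.44 [0.20 to 0.68] and Hk3 of 0.26 [0.07 to 0.45], while the intervals of Tkfc, Sord, Akr1b3, Aldoc and Hk1 included 0. The cells with a UMI were deeper, with a median of 10666 UMIs against 7728, and the part of depth was not tested.

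Split by sex-linked UMIs, 2 of the Glut5 KO over wildtype ratios had opposite signs with intervals that did not overlap. How many of all genes did so was not counted, so nothing particular to these genes is drawn from it. Sex and mouse of origin cannot be told apart. Other ratios had opposite signs with intervals that overlapped, such as Hk2 in microglia-gated cells, with 0.33 for Y-linked and -0.07 for Xist UMIs. In microglia-gated cells with Y-linked UMIs alone, Hk3 had 84.3 CPM [73.4 to 96.5] in the 218 Glut5 KO and 139 CPM [128 to 151] in the 311 wildtype cells, a log2 ratio of -0.72 [-0.95 to -0.49]. In those with Xist UMIs alone it had 76.3 CPM [68.2 to 85.1] in the 378 Glut5 KO and 66.5 CPM [59.5 to 74.0] in the 444 wildtype cells, a ratio of 0.20 [-0.03 to 0.42]. The lower Hk3 level of the Glut5 KO library was thus seen in the cells with Y-linked UMIs and not in those with Xist UMIs, and this difference was not tested. Akr1b3 had ratios of -0.39 and -0.03 in the same cells. In monocyte/macrophage-gated cells the Hk3 ratio was above 0 in both, 0.30 with Y-linked and 0.68 with Xist UMIs, while Hk2 had 0.50 with Y-linked and -0.06 with Xist UMIs.

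**Figure D5:**
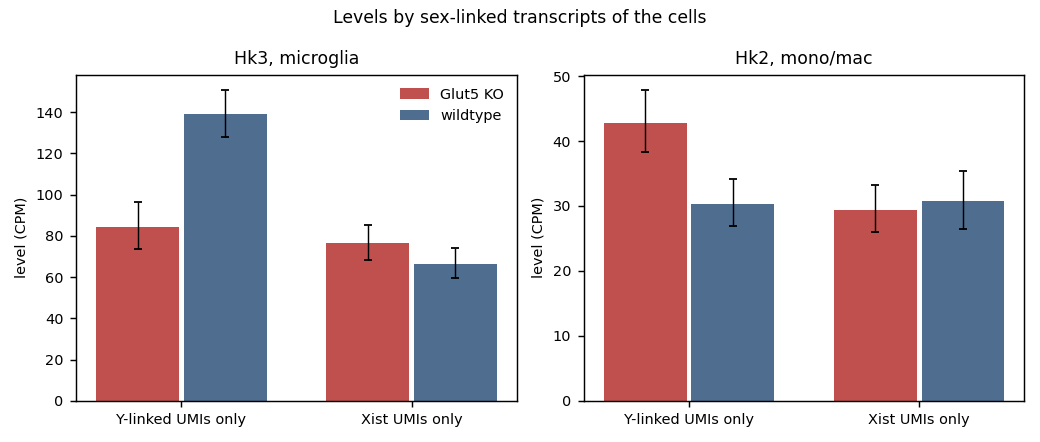
Level in CPM (y axis, from 0) of Hk3 in microglia-gated and Hk2 in monocyte/macrophage-gated cells, split by whether a cell held Y-linked or Xist UMIs alone (x axis), Glut5 KO in red and wildtype in blue, with exact 95% counting intervals. Wildtype Hk3 in cells with Y-linked UMIs (139 CPM) stands above the other 3 bars of its panel, and Glut5 KO Hk2 in cells with Y-linked UMIs (42.9 CPM) above the other 3 of its own.

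Across the 18 class and library sums with at least 50 cells, the genes most like each enzyme gene were found by Pearson's r of log2(CPM + 1) among 9659 genes. Khk was closest to Creb3 (r = 0.92), Evi2a (0.91) and Atp6v1d (0.91). Hk1 was closest to Emb (0.95), Dgat1 and Nsd3. Hk2 was closest to Gatm (0.92), Bco2 and Lpcat2, and Hk3 to Tnfrsf21 (0.92), Rab31 and Fhad1. Sord was closest to Mgmt (0.85), Fabp3 and Apoc1, and Aldoc to Mob3b (0.92), Gsn and Rtl5. Akr1b3 was closest to Gspt1 (0.91), Atp13a1 and Tmem9b, and Tkfc to Ptdss1 (0.87), Sac3d1 and Tyw5. The points share 2 libraries and their depth, and the values are a description.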

How the data were processed

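Single-cell RNA was measured in 2 libraries of CD45+ cells, 1 per genotype, from the 5′ ends of transcripts (10x kit, per the labels' protocols). The deposited values are raw UMI counts. The submitters' processing notes name Cell Ranger 3.1.0 and the mm10 genome; version 7.0.1 stands in the matrix header. Whether the authors counted introns or used strand is not stated in these sources.

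Barcodes with at least 300 genes and under 10% mitochondrial UMIs were kept. A barcode joined a class with at least 3 UMIs over its gate markers, from at least 2 of them, and 3 times as many as for any other class. Doublets were removed only where markers of 2 classes met. The top 8% of Scrublet scores were left out as an alternative. UMIs were summed per class and library, and log2 ratios took 0.5 added to each count. Levels have exact Poisson intervals, shares Clopper-Pearson intervals and ratios conditional binomial intervals, at 95%. A count of 0 allows up to 3 counts. Counting of genes past 1.5-fold used genes with at least 50 UMIs over both libraries. Thinning used seed 1. Ratio code was tested on simulated data. Python 3.11.15, numpy 2.4.6, scipy 1.17.1 and scanpy 1.11.5 were used, and edgeR 4.0.16 for the TMM alternative.

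The genes named are the 8 enzymes, Slc2a5, the 2 highest and 2 lowest of each pathway list, the 3 genes most like each enzyme and the free-RNA genes. Members, markers and lists were chosen with earlier results of these data known. The split of wildtype microglia by Slc2a5 and the alternative without dividing cells were added after seeing the data. Coordinates are GRCm38, from GENCODE M21.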

Additional observations from a re-analysis of the deposited data

Results flagged for a closer look

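Among the enzyme genes, 2 ratios of Glut5 KO over wildtype went opposite ways in cells with Y-linked UMIs alone and in cells with Xist UMIs alone, with intervals that did not overlap. Hk3 in microglia-gated cells had a log2 ratio of -0.72 [-0.95 to -0.49] with Y-linked UMIs and 0.20 [-0.03 to 0.42] with Xist UMIs. Hk2 in monocyte/macrophage-gated cells had 0.50 [0.26 to 0.74] with Y-linked UMIs and -0.063 [-0.34 to 0.21] with Xist UMIs. How many of all genes did so was not counted, so nothing particular to these genes is drawn from it. The difference between the sexes was not tested, since each library gives 1 value per sex, and sex and mouse of origin cannot be told apart. Mean depth per cell was 11530 Glut5 KO and 13359 wildtype UMIs in the microglia-gated cells with Y-linked UMIs, and 11164 Glut5 KO and 11284 wildtype UMIs in those with Xist UMIs; its part was not tested.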

How the results depend on the processing

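Over 13 alternatives, the 37 log2 ratios of genes with enough UMIs gave 481 values. Of these, 425 stayed within the counting interval of the reported ratio, 56 moved outside it, and none of the 5 ratios reported as past 1.5-fold changed sign. The causes were not tested. Aldoc in microglia-gated cells had a log2 ratio of 0.63 when the gate excluded any other gate and 1.04 when it took the most marker UMIs. Among counts of genes past 1.5-fold, that of higher genes in microglia-gated cells was thus 1 in place of 0 under these gates. The count of lower ones was 1 in place of 0 in cells with Y-linked UMIs only, and 2 at a lower fold threshold (log2 of 0.32). In monocyte/macrophage-gated cells the count of higher genes was 1 in place of 0 in cells thinned to 1000 UMIs and in cells with Xist UMIs only, and 2 at that lower fold. Of the 37 ratios, 21 had the opposite sign under at least 1 alternative: 5 of 8 in microglia-gated, 2 of 8 in monocyte/macrophage-gated, 4 of 6 in cDC2-gated, 5 of 6 in migratory dendritic, 3 of 7 in T cell-gated and 2 of 2 in NK cell-gated cells. Signs changed most often for Tkfc in T cell-gated and Akr1b3 in NK cell-gated cells (6 of 13 alternatives each), Akr1b3 in T cell-gated cells (4) and Aldoc in microglia-gated and T cell-gated cells (3 each). Hk3 in microglia-gated cells changed sign in 1 (0.20 in cells with Xist UMIs only). Hk3 in microglia-gated over monocyte/macrophage-gated Glut5 KO cells, level in the report, lay between log2 -0.23 and 0.20. Khk in pDC-gated over monocyte/macrophage-gated cells stayed between log2 3.04 and 3.57 in the Glut5 KO and between 2.17 and 2.97 in the wildtype library, an alternative added after seeing the data. No paired analysis was possible because each genotype has 1 library. Depth limits Tkfc everywhere and most genes in NK cell-gated cells.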
